A study of Rattus norvegicus with 2 samples.

Results

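The 10 genes described here are markers that are widely used to tell microglia, the resident macrophages of the brain, and other macrophages from neural cells: Tmem119, Cd14, Trem2, Ptprc, Cx3cr1, P2ry12, Itgam, Aif1, Csf1r and Cd68. They were chosen by name, and each of the 10 was measured by exactly 1 array feature, out of 18171 genes measured in all. The samples were 2 single colonies, No.4 and No.8, of the rat glioma line C6, which serves as a model of astrocytic tumours. Each colony was grown out of this 1 line and was represented by 1 whole-transcript expression array. Both colonies carried the same description (undifferentiated, cultured in DMEM with 10% FBS) and the same treatment entry, CHIR99021 at 20 µM together with forskolin at 100 µM over 35 days, and the labels do not settle whether the RNA was taken before or after that treatment. No untreated partner and no microglial sample is used here. The values were read for which of these myeloid genes a glioma line shows at all, and for differences between the 2 colonies. With 1 array per colony no test was possible, each value was measured once, and precision is limited by the small number of arrays.

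Microglia and macrophages depend on signalling through the CSF1 receptor and on the transcription factor PU.1, which is encoded by Spi1 and switches on many myeloid genes. Resting microglia are known for P2ry12, Cx3cr1 and Tmem119, while Cd68 and Aif1 are used as general macrophage markers. The phosphatase CD45, encoded by Ptprc, is found on nucleated blood-derived cells in general. Glioma cells are of neural origin, so in tumours these genes are read as signs of infiltrating immune cells, although some of them, such as Tmem119 in bone-forming cells, are also known from other lineages.

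Promoters of 4 of these genes are shown, as RefSeq gives them. They were read for the short purine-rich core that PU.1 and related ETS factors bind. The 4 are those with enough bases outside the annotated gene to print, and matches played no part in that choice. Promoter windows were given for 7 of the 10 genes, and none was given for Tmem119, P2ry12 and Aif1. The windows run from 250 bases before to 50 bases after a gene's start (RefSeq, build GRCr8), and the stretches below keep only the bases that lie outside the annotated gene. Capitals mark matches to GAGGAA or GGAAGT on either strand; the motifs share letters, so matches to them can overlap. The coordinates are chr9:20151798-20152029 on the minus strand for Trem2, chr10:54882442-54882691 on the minus strand for Cd68, chr13:52259811-52259996 on the minus strand for Ptprc and chr1:192089342-192089495 on the plus strand for Itgam.
Trem2: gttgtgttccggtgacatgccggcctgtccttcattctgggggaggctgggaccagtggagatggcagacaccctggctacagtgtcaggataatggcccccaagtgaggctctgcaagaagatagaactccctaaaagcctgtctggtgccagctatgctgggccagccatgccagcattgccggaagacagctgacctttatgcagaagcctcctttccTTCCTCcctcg
Cd68: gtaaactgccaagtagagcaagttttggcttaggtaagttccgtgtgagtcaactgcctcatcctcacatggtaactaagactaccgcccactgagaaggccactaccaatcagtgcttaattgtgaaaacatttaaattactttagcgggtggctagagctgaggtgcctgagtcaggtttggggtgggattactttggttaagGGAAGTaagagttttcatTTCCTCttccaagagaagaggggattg
Ptprc: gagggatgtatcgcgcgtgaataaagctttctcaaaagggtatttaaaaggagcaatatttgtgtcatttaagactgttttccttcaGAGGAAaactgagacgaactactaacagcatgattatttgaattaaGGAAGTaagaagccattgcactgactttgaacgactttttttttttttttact
Itgam: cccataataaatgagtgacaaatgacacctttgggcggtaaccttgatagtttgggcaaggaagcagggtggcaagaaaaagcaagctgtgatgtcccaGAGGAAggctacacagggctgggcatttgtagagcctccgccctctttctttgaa
Of the 7 full windows, 6 held GAGGAA, against 27.6% of all 33469 promoter windows, and 3 held GGAAGT, against 22.6% of all windows. Each of the 7 held at least 1 of the motifs, against 42.3% of all windows. A match is a string of letters and not a binding site. The match was present upstream of Trem2, whose level lay above the stricter of the marks described next. It was also present upstream of Cd68, Ptprc and Itgam, whose levels did not lie above that mark.

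Levels are log2 units as deposited. A pair of marks was used to read them, because no detection call was used here. The floor was 4.33, the median over the whole table. The stricter mark was 5.67, the 99th percentile of 1184 olfactory receptor genes, a family that is silent in most tissues but the nose; the median of these genes was 2.74. Features differ in how strongly they respond to their transcript, so levels are set against these marks and not ranked between genes as amounts of RNA.

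Of the 10 markers, 3 stood above the stricter mark in both colonies, namely Tmem119, Cd14 and Trem2. In No.4, Trem2 was only 0.13 above it. Cd68 lay at the floor. The other 6, Ptprc, Cx3cr1, P2ry12, Itgam, Aif1 and Csf1r, were below the floor in both colonies. In counts, 4 of 10 markers (40%) were past the floor in at least 1 colony, where 60.9% of all genes were, and 3 of 10 (30%) were above 5.67 in both, where 40.6% of all genes were. The markers were thus not past either mark more often than genes in general. In bulk RNA, a small number of expressing cells and a low level in every cell cannot be told apart.

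**Figure D1:**
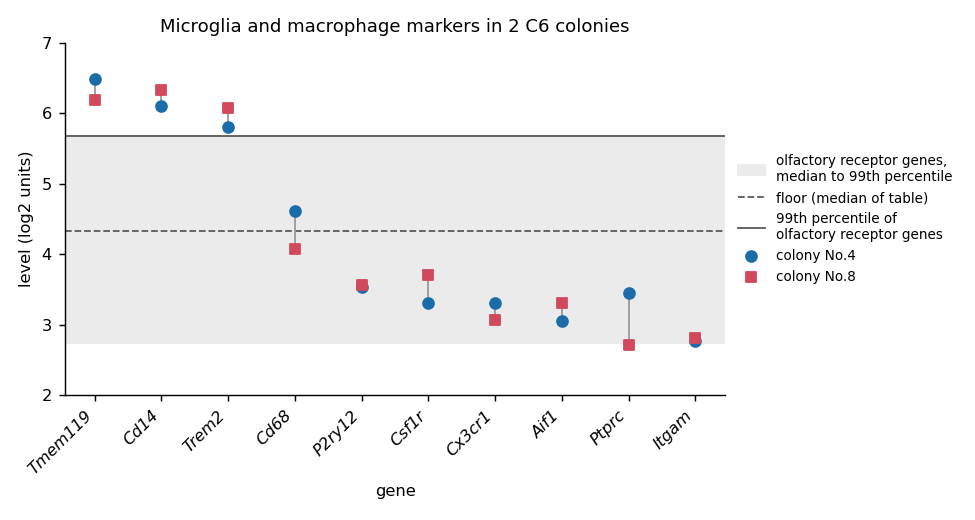
Level in log2 units of each of the 10 markers in colony No.4 (circles) and colony No.8 (squares), 1 array each, in order of mean level; the grey band spans olfactory receptor genes from their median to their 99th percentile and the dashed line is the floor of 4.33. Tmem119, Cd14 and Trem2 lie above the band in both colonies, Cd68 straddles the floor, and the other 6 lie below it.

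Tmem119, which encodes a transmembrane protein of resting microglia with an unsettled function, was at 6.48 (No.4) and 6.19 (No.8). Both levels were past the mark, with 4 of the 1184 olfactory receptor genes as bright by mean level. The difference, No.8 minus No.4, was -0.29, which is 1.22-fold with No.4 the higher. Tmem119 lay at percentiles 67.7 and 63.2 of all genes in the 2 colonies, so its feature was in the upper part of the array without being among the brightest. Its neighbours in RefSeq gene order were Selplg, at 4.79 in both colonies, and Iscu, a scaffold gene for iron-sulphur clusters, at 8.39 and 8.03.

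Cd14, the co-receptor that hands bacterial lipopolysaccharide to TLR4, was at 6.10 in No.4 and 6.33 in No.8. Both levels were above the mark, and 4 olfactory receptor genes were as bright by mean level. The difference was 0.24 (1.18-fold higher in No.8). Neither of the measured neighbours of Cd14 was above 5.67 in both colonies: Tmco6 was at 5.62 and 5.82, and E230025N22Rikl at 4.62 and 4.92.

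Trem2, a receptor for lipids and lipoproteins that sustains microglial survival and phagocytosis, was at 5.80 in No.4 and 6.08 in No.8. It was the marker nearest above the mark, by 0.13 in No.4 and 0.41 in No.8, and 7 olfactory receptor genes were as bright by mean level. Among the olfactory receptor genes of each array alone, Trem2 lay at percentile 98.99 in No.4 and 99.58 in No.8. In No.4 it was thus at the border of their 99th percentile. The difference was 0.28 (1.21-fold higher in No.8). The next measured genes on either side, the related receptor genes Treml1 (3.78 and 3.59) and Treml2 (3.67 and 3.58), were below the floor in both colonies.

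Cd68, a glycoprotein of late endosomes and lysosomes that is abundant in phagocytes, was at 4.62 in No.4 and 4.07 in No.8. It was past the floor in No.4 only and under 5.67 in both, and 62 of the 1184 olfactory receptor genes were as bright by mean level. The difference was -0.55 (1.46-fold higher in No.4). Of 2866 genes whose mean level lay within 0.5 of that of Cd68, 10.1% differed by as much or more. The genes on both sides were far past the marks: Mpdu1 was at 8.42 and 7.79, and Eif4a1, a translation initiation helicase gene, at 10.11 and 10.59.

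Among receptors at the surface of microglia, Csf1r, the receptor that macrophages need to survive, was at 3.30 in No.4 and 3.70 in No.8. P2ry12, the ADP receptor that steers microglial processes, was at 3.53 and 3.57. Cx3cr1, the receptor for the neuronal chemokine fractalkine, was at 3.31 and 3.07. All these levels were below the floor, and 196, 189 and 313 olfactory receptor genes were as bright by mean level as Csf1r, P2ry12 and Cx3cr1. The nearest measured genes on either side of Csf1r were above 5.67 in both colonies, Pdgfrb (6.48 and 7.55) and Slc26a2 (6.51 and 6.43).

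The general leukocyte and macrophage genes also lay within the range of the olfactory receptor genes. Ptprc was at 3.45 in No.4 and 2.71 in No.8, and 361 olfactory receptor genes were as bright by mean level. Itgam, the alpha chain of the complement receptor CR3 (CD11b), was at 2.77 and 2.81, close to the median of the olfactory receptor genes, and 552 of them were as bright. Aif1, which encodes the actin-bundling protein IBA1 used to stain microglia, was at 3.05 and 3.30, with 315 as bright. None of these levels can be told from background on these arrays, which does not show that the transcripts are absent.

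**Figure D2:**
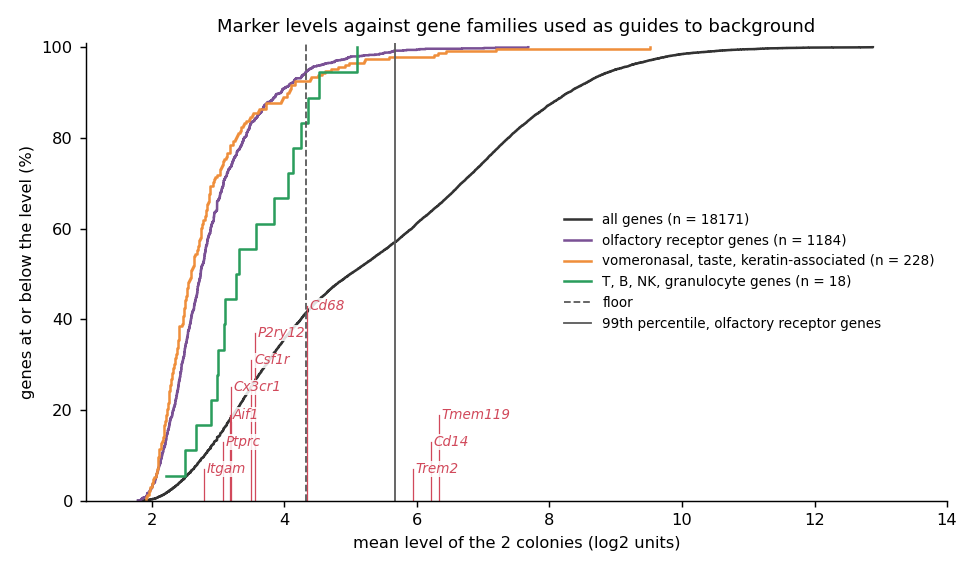
Cumulative share of genes (%) against the mean level of the 2 colonies in log2 units for all genes, 1184 olfactory receptor genes, 228 vomeronasal, bitter taste receptor and keratin-associated genes, and 18 T, B, NK and granulocyte genes; red lines place the 10 markers, and the vertical lines are the floor and the olfactory receptor 99th percentile. Tmem119, Cd14 and Trem2 lie where nearly all genes of the 3 comparison sets have been passed, and the other markers lie inside their range.

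The strict mark depended on the family behind it. A second guide of 228 genes for vomeronasal receptors, bitter taste receptors and keratin-associated proteins had a median of 2.59 and a 99th percentile of 6.51, above the levels of Tmem119, Cd14 and Trem2, so that 0 of the 10 markers passed it in both colonies. The 34 keratin-associated genes decided this: the 99th percentile of the other 194 genes was 4.49, and Tmem119, Cd14 and Trem2 were above that in both colonies. By mean level, 3, 5 and 5 of the 228 genes were as bright as Tmem119, Cd14 and Trem2. None of 18 genes of T cells, B cells, NK cells, granulocytes and mast cells was as bright as these 3 markers, while 3 of the 18 were as bright as Cd68.

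No marker differed by 2-fold between the colonies, neither among the 4 past the floor nor among the 6 below it. Of the 11070 genes past the floor, 5.47% differed by 2-fold (2.91% higher in No.8 and 2.57% higher in No.4). Of the 10 differences, 6 were positive (higher in No.8) and 4 negative, with a median of 0.04, beside 0.03 over all genes measured; the mean of the 10 was -0.06, so median and mean differed in sign. The middle 95% of the differences of olfactory receptor genes ran from -0.63 to 0.59, and 9 of the 10 markers lay inside it. The exception was Ptprc, with a difference of -0.74 (1.67-fold higher in No.4), and both of its levels were below the floor. Of the genes within 0.5 of its mean level, 1.56% differed by as much or more. After Ptprc and Cd68 came Csf1r, with a difference of 0.40, again with both levels below the floor.

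**Figure D3:**
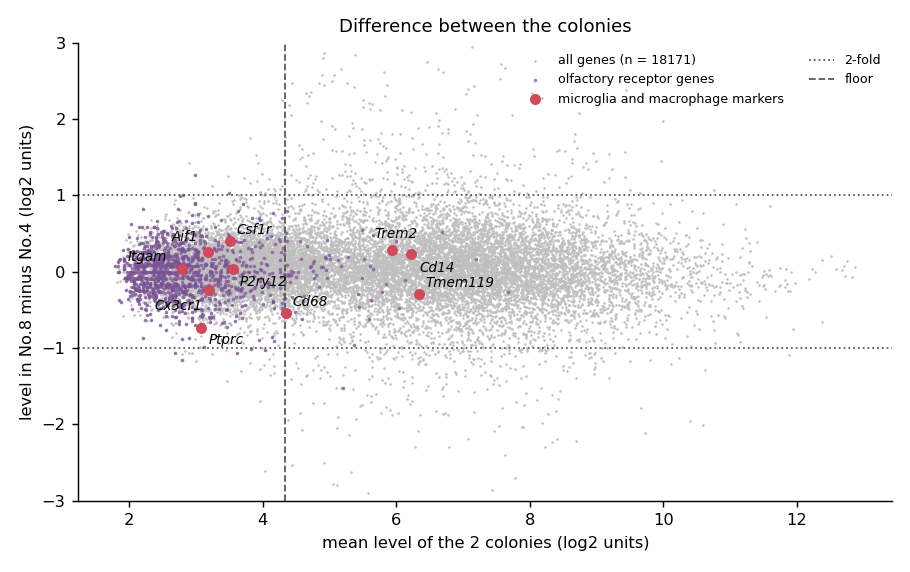
Difference between the colonies (No.8 minus No.4) against the mean level, both in log2 units, for all 18171 genes (grey), olfactory receptor genes (violet) and the 10 markers (red); 21 genes lie outside the plotted range. All 10 markers lie between the dotted lines at 2-fold, and Tmem119, Cd14 and Trem2 differ by less than 0.3 in either direction.

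The partners of each marker were taken from lists that name the genes it works with. To set beside the counts of each list, 60.9% of all genes were past the floor and 40.6% above 5.67 in both colonies. For Trem2, the signalling adaptor is DAP12, encoded by Tyrobp, and it was at 4.23 in No.4 and 4.16 in No.8, below the floor in both. Syk, the kinase that DAP12 recruits, named with its value known, was at 3.37 and 3.49. Adam17, a protease that sheds TREM2 and many other surface proteins, was at 7.52 and 8.05 and was the only one of the 11 measured genes of this list above 5.67 in both colonies. Of the TREM2 ligand genes, Apoe was at 4.19 and 4.73 and Clu, which encodes clusterin, at 4.97 and 6.40 (2.70-fold, and 1.65-fold with the level in No.4 raised to 5.67). In all, 3 of the 11 genes (27.3%) were past the floor, and the median difference was 0.00.

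The partners of Cd14 lay on both sides of the stricter mark, among receptor genes and signalling genes alike. TLR4 itself was at 4.42 and 5.03, past the floor and under 5.67, and the TLR4 co-receptor gene Ly96 (MD-2) was at 3.07 and 2.98. Lbp, the serum protein that delivers lipopolysaccharide to CD14, was at 3.15 and 3.47, and Tlr2 at 3.77 and 3.86. The adaptor gene Tirap was at 5.26 and 4.86, past the floor and under 5.67. The cytoplasmic adaptor gene Myd88 was at 5.84 and 5.73, and the kinase genes Irak1 (7.27 and 7.15), Irak4 (5.87 and 6.73) and Irak3, whose product restrains the pathway (7.20 and 7.80), were above the mark as well. Tlr5, the flagellin receptor gene, was the fifth gene above it, at 7.46 in No.4 and 5.95 in No.8, higher in No.4 by 2.85-fold and the only member of this list at 2-fold. Of the 15 genes measured, 7 were past the floor (46.7%) and 5 above 5.67 in both colonies (33.3%), with a median difference of -0.07.

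For Csf1r, one ligand gene was above the mark and the other was below the floor. Csf1 was at 7.30 in No.4 and 8.02 in No.8, a difference of 0.72, while Il34 was at 3.63 and 3.74. The signalling genes Grb2 (8.24 and 8.43), Cbl (8.36 and 8.23) and Sos1 (7.58 and 7.44), which act below many receptors, were above the mark too. Of 10 genes measured, 5 were past the floor and 4 above 5.67 in both colonies, with none at 2-fold and a median difference of -0.01.

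Itgam pairs with the beta chain encoded by Itgb2, which was at 3.91 in No.4 and 4.28 in No.8, below the floor like Itgam. The other alpha chains that pair with it, named with their values known, were below it too, with Itgal at 3.65 and 3.55, Itgax at 3.95 and 4.20 and Itgad at 3.37 and 3.63. The ligand gene Icam1 was at 6.50 and 7.33, above the mark, and so were Itgb1 (9.69 and 9.30), the beta chain of most other integrins, and Tln1 (8.34 and 8.58), which encodes the integrin activator talin. Itga4 was at 5.30 and 7.96 and was the 1 gene of the 11 at 2-fold (4.87-fold or more, with the level in No.4 raised to 5.67). In this list 5 of 11 genes were past the floor (45.5%), and the median difference was 0.25.

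Cx3cl1, which encodes the ligand of Cx3cr1, was at 3.70 and 4.03, so neither side of the fractalkine pair reached the floor. P2ry13, the neighbour and close relative of P2ry12, was at 3.80 and 4.15. P2rx4, an ATP-gated channel gene, was at 5.74 and 6.12, and Gnai2, an inhibitory G protein subunit used by P2ry12 and many other receptors, was at 10.96 and 10.76. These were the 2 genes above the mark of the 15 measured in this list, and 4 of 15 (26.7%) were past the floor, with a median difference of -0.02.

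**Figure D4:**
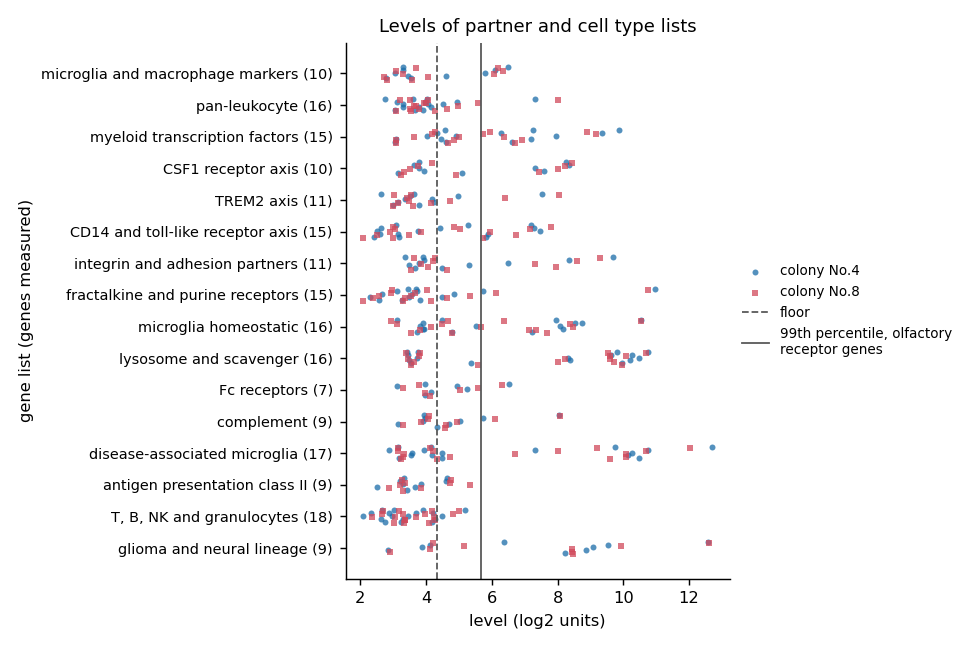
Level in log2 units of every measured gene of the 10 markers and of 15 further lists, in colony No.4 (blue circles) and colony No.8 (red squares), with the number of genes measured in brackets; vertical lines are the floor (dashed) and the olfactory receptor 99th percentile (solid). Lysosome and scavenger genes form 2 groups, 9 above the solid line and 6 below the dashed one, with 1 between, and no T, B, NK or granulocyte gene reaches the solid line in both colonies.

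Genes that mark leukocytes as a class were mostly low. Of 16 such genes, 4 (25%) were past the floor and 1 (6.25%), Cd48, was above 5.67 in both colonies, at 7.30 in No.4 and 8.02 in No.8. Over all genes these shares were 60.9% and 40.6%. Cd48 encodes a surface ligand of lymphocyte and NK cell receptors. Also past the floor, and under 5.67 in both colonies, were Ptpn6 (4.93 and 5.58), Rac2 (4.52 and 4.98) and Cd37 (4.15 and 4.65). Among the other 12, below the floor in both colonies, were Coro1a (3.60 and 3.50), Lcp1 (3.31 and 3.64) and Cd53 (2.76 and 3.22), named with their values known. The median difference was 0.27 and no gene of the list reached 2-fold. Of the 18 genes of T, B and NK cells, granulocytes and mast cells, 3 (16.7%) were past the floor and 0 above 5.67 in both; the list had median levels of 3.26 and 3.36, beside 3.49 and 3.64 for the 10 markers.

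Of 15 myeloid transcription factor genes measured, 11 were past the floor (73.3%, beside 60.9% of all genes) and 7 above 5.67 in both colonies (46.7%, beside 40.6% of all genes). The 7 included Mef2c (9.88 and 8.89), a factor of muscle, neurons and microglia, and Runx1 (9.34 and 9.18), a factor of blood formation. Sall1, which defines microglia among macrophages and is also a kidney and neural progenitor gene, was at 7.96 and 6.38, 2.99-fold higher in No.4. Maf, at 7.26 and 5.94, was 2.50-fold higher in No.4. Bhlhe41 (7.20 and 6.91) and Mitf (6.62 and 6.69) differed by less than 0.3. Spi1, the gene of PU.1, was named with its value known and was at 4.04 and 3.64, below the floor in both colonies; Irf8, its partner in microglia, was at 4.92 and 4.99, past the floor and under 5.67. The median difference of the list was -0.16.

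Of 16 genes counted as typical of resting microglia, 6 (37.5%, beside 40.6% of all genes) were above 5.67 in both colonies. They were led by genes with wide expression outside microglia. Sparc, a matrix-binding glycoprotein gene, was at 10.54 in each colony, Olfml3, a secreted matrix protein gene, at 8.52 and 8.38, and Cst3, the secreted protease inhibitor cystatin C, at 8.08 and 8.48. Bin1 (8.16 and 7.36), a membrane-bending protein gene, and Tgfbr1 (7.23 and 7.68), a TGF-beta receptor gene, were the next, with Sall1 as above. Mertk (5.51 and 5.68), Selplg (4.79 in both colonies), Golm1 (4.47 and 4.67) and Slc2a5 (3.91 and 4.49) were past the floor without passing 5.67 in both. Gpr34, a receptor that is close to restricted to microglia in the brain, was at 3.12 and 2.93. It was named with its value known and was among the 4 genes below the floor in both colonies. Rnase4 and Pros1 differed most and in opposite directions: Rnase4 was at 8.74 and 3.12 (8.38-fold or more) and Pros1 at 3.90 and 7.13 (2.75-fold or more), with the lower level raised to 5.67. Rnase4 had 2 features, and only the one with the higher mean level is given. In all 12 of the 16 (75%, beside 60.9% of all genes) were past the floor, and the median difference was 0.00.

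Of 16 measured genes of lysosomes, the compartment of CD68, and of scavenger receptors, 10 (62.5%) were past the floor and 9 (56.2%) above 5.67 in both colonies. Over all genes these shares were 60.9% and 40.6%. The 9 included Cd63 (10.74 and 10.70), a tetraspanin of late endosomes, and Lamp1 (9.96 and 9.95) and Lamp2 (10.21 and 9.71), structural relatives of CD68 in the lysosomal membrane. The cathepsin genes Ctsb (10.28 and 10.09) and Ctsd (10.47 and 9.60) and the cholesterol carrier gene Npc2 (9.82 and 9.54) were also among them. Marco, a macrophage scavenger receptor gene named with its value known, was at 5.37 and 5.57, past the floor in both colonies and under 5.67. The 6 genes below the floor in both colonies were Msr1, Cd163, Mrc1, Stab1, Lyz2 and Ctss, named with their values known; Ctss, the cathepsin of antigen-presenting cells, was at 3.41 and 3.38. None of the 16 reached 2-fold, and the median difference was -0.04.

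Of 7 Fc receptor and signalling genes measured, 3 (42.9%) were past the floor, and of 9 complement genes 5 (55.6%) were. Both shares were below the 60.9% of all genes. Fcgrt, the widely expressed neonatal Fc receptor, was the 1 gene of the 7 above 5.67 in both colonies, at 6.52 and 6.30, while Fcer1g, the signalling chain of macrophage Fc receptors, named with its value known, was at 4.15 and 3.96. The complement protease genes C1r (8.03 and 8.08) and C1s (5.74 and 6.10) were above the mark, as 2 of 9 genes measured. The C1q chain genes, made in brain mainly by microglia, were at 4.70 and 4.60 for C1qa, 3.90 and 3.84 for C1qb and 4.34 and 4.58 for C1qc, all under 5.67 (named with their values known); C1qa and C1qc were past the floor in both colonies and C1qb was below it. Neither list held a gene at 2-fold, and the median differences were -0.19 for Fc receptor genes and 0.10 for complement genes. Of 9 class II and co-stimulation genes, 3 (33.3%) were past the floor and 0 above 5.67 in both. Cd80, a co-stimulatory ligand gene, was at 3.85 and 5.34, which is 2.02-fold with the level in No.4 raised to the floor. Both levels were under 5.67. Cd80 had 2 features, and only the one with the higher mean level is given.

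Of 17 genes that rise in disease-associated microglia, 10 (58.8%) were past the floor and 7 (41.2%) above 5.67 in both colonies, near the 60.9% and 40.6% of all genes. Spp1, which encodes the secreted protein osteopontin, was at 12.70 and 12.04, Axl, a receptor tyrosine kinase gene, at 10.15 and 10.07, and the tetraspanin gene Cd9 at 9.75 and 9.19. Csf1, Cd63, Ctsb and Ctsd of this list have been given above. Gpnmb, a lysosomal glycoprotein gene, was at 4.48 and 6.69, 4.64-fold higher in No.8 and 2.03-fold with the level in No.4 raised to 5.67. Clec7a and Itgax, receptor genes of activated microglia named with their values known, were below the floor in both colonies, at 3.54 and 3.30 and at 3.95 and 4.20. The median difference was -0.04.

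Levels of 9 genes of glioma and neural lineage were also read, which by themselves do not settle the identity of the cells. Past the floor were 7 of the 9 (77.8%, beside 60.9% of all genes). Of the 9, 5 (55.6%, beside 40.6% of all genes) were above 5.67 in both colonies. These were Vim (12.57 and 12.60), Nes (9.54 and 9.94), Sox2 (9.08 and 8.44), Cd44 (8.86 and 8.43) and S100b (8.24 and 8.46). The colonies differed by 2-fold in 2 others. The levels of Olig2, an oligodendrocyte transcription factor gene, were 6.36 in No.4 and 4.22 in No.8. That is 4.09-fold with the level in No.8 raised to the floor and 1.61-fold with it raised to 5.67. Gfap, the astrocytic filament gene, was at 4.11 and 5.17, with both levels under 5.67 (2.07-fold as deposited and 1.79-fold with the level in No.4 raised to the floor). Fabp7 (2.86 and 2.90) and Slc1a3 (3.88 and 4.12) were below the floor in both colonies. By the olfactory receptor mark, the set of 10 myeloid markers did not appear as a unit in these cells. Tmem119, Cd14 and Trem2 were above that mark in both colonies, though 0 of the 10 passed the second guide of 6.51. The leukocyte gene Ptprc, the macrophage genes Csf1r, Itgam and Aif1 and the microglial receptor genes P2ry12 and Cx3cr1 were below the floor in both colonies. The TREM2 adaptor gene Tyrobp and the myeloid factor gene Spi1 were below it too. Of the 15 measured myeloid transcription factor genes, 11 (73.3%, beside 60.9% of all genes) were past the floor. Above 5.67 in both colonies were 7 of them (46.7%, beside 40.6% of all genes).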

How the data were processed

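The authors deposited 1 log2 level per array feature and colony, for 36685 features; software, background correction and normalization, all not given in the sources used here, could not be checked. Base 2 was inferred, since values reach 13.3 and the largest natural log of a 16-bit signal is 11.1. The quartiles of the arrays were nearly equal (medians 4.34 and 4.31), so the values were compared as deposited. The platform annotation gave exactly 1 symbol to 18511 features, several to 575 and none to 17599; the feature with the highest mean level stood for each gene. RefSeq tables (GRCr8) gave gene order and promoters. Levels, differences and counts were computed in Python 3.11.15 with pandas 2.3.3, and the counting was tested on simulated data. All 10 markers were named, and of each partner list the direct partners, up to 6 genes above the 99th percentile of olfactory receptor genes in both colonies, and genes past the floor at 2-fold. Neighbours were named by position and the glioma and neural genes as cell type markers; other genes outside these rules were named with their values known. Markers and lists were chosen with earlier results of these data known. Whether the arrays come from separate cultures of a colony is not stated. The alternatives were other floors and guides, 3 between-array scalings, other features per gene, an offset of 64, a smaller fold and the list mean.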

Additional observations from a re-analysis of the deposited data

How the results depend on the processing

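No paired analysis was possible because each colony had 1 array and no replicate. Of 34 recomputed counts and list medians, 32 stayed within 1.5 times the count, or within 0.1 of the median, given in the report, and 2 moved. Many of the 32 could not have moved, so they are not separate checks. Centring and other choices of feature left every marker value as it was. The count of 0 markers at 2-fold could not rise under another floor or the offset. With a difference of 0.58 in place of 1, the count among markers past the floor stayed 0. Ptprc, below the floor in both colonies, differed by -0.74 and was not in that count. With the floor at the upper quartile of all values, 6.37, the number of markers past it was 1 (Tmem119) in place of 4. With the guide taken from vomeronasal, taste and keratin-associated genes, the number above it in both colonies was 0 in place of 3, and without the keratin-associated genes, an alternative added with the values known (chosen after seeing the data), it was 3. Quantile normalization and loess gave 20 marker differences, none of which changed sign, and the largest shift was 0.03. The other settings could not change a sign: the median difference over all features was 0, so centring changed nothing, all 10 markers have 1 feature, and an offset of 64 keeps the order of both levels while shrinking differences, by up to 0.65. The mean of the 10 differences was -0.06, against a median of 0.04. Signal over background on each array is not known, which limits every statement on a level near the floor.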

Other observations

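Exactly equal values in both colonies, to all decimals deposited, were found for 1320 of the 36685 features and for 635 of the 18171 genes (3.49%). None of the 10 markers was among them, and 6 of the 171 measured genes of the partner and immune cell lists were, including Selplg, the neighbour of Tmem119.

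Of the 20 nearest measured neighbours of the 10 markers in RefSeq gene order, 7 were above 5.67 in both colonies. For Tmem119, Cd14 and Trem2, 1 of 6 neighbours was, and for the other 7 markers 6 of 14. The share over all genes was 40.6%, and a difference between these small groups was not tested.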
